A study of Tuber borchii with 4 samples.

Results

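The 102 genes described here are the gene models of *Tuber borchii*, the Bianchetto truffle, whose counts were at least 3 times higher in potato dextrose broth (PDB) than in each of 3 other liquid media. They were chosen among 12346 gene models by CPM, which is the count of a gene per 1000000 counts of its library. A member had at least 10 CPM in PDB and at least 3 times its CPM in each of MPY, WPGY and WPG. The 2 polyketide synthase models that the selection leaves out by name reached 2.72 and 2.46 times the next medium, so they would not have met the limit. As the members were chosen on these values, their difference between PDB and the other media is given as a description and without a test.

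RNA was measured by sequencing in mycelium of strain SP1, 1 isolate grown without a host without light or shaking in liquid medium at 22 °C. PDB held 20 g/L of potato dextrose broth and was harvested on day 85. MPY contained maltose (35 g/L) together with peptone and yeast extract (5 g/L of each) and was also harvested on day 85. WPGY was woody plant medium with 20 g/L glucose and 5 g/L yeast extract, and WPG the same medium with 20 g/L glucose alone, both harvested on day 65. The headings of the count columns give day 83 for MPY and day 64 for WPGY and WPG. Each medium has 1 library, so differences between media cannot be set against a spread of replicates. Between PDB or MPY and the woody-plant-based media, the medium and the day of harvest cannot be told apart. The counts summed to 157335190 in PDB, 47969567 in MPY, 125457058 in WPGY and 116376579 in WPG, so that 1 count was worth between 0.00636 CPM in PDB and 0.0208 CPM in MPY. Intervals are at 95% and cover counting error only. CPM is a share of the RNA of a whole culture, in which more hyphae that transcribe a gene and more RNA of it per hypha cannot be told apart.

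Truffles are ascomycete fungi that live with tree roots, and their mycelium can also feed on dissolved sugars in pure culture. Potato dextrose broth is an infusion of potato with glucose, whereas the maltose medium supplies a disaccharide with digested protein, and woody plant medium is a defined plant culture mix, here with added mineral salts and inositol. Fungi adjust to such media in part by changing the transcription of transporters, secreted enzymes and regulators. In ascomycetes, genes that serve one nutrient or one secondary metabolite often lie side by side in the genome and are transcribed together.

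All 102 members had at least 5 counts in every library, the fewest in gene 636335 in WPG. Of the 6734 gene models with at least 10 CPM in PDB, 1.51% met the selection. At least 3 times the CPM of a single medium was reached by 4.14% of them against MPY, 4.17% against WPGY and 4.10% against WPG. The members had a median of 138 CPM in PDB, 23.6 CPM in MPY, 17.0 CPM in WPGY and 17.8 CPM in WPG. Their lowest value in PDB was 12.2 CPM and their highest 3749.9 CPM. The median of all gene models in PDB was 17.7 CPM, and 6 members lay below it. The ratio of PDB to the highest other medium had a median of 4.19 and went up to 71.1. It was under 4 for 45 members, at least 5 for 32 and at least 10 for 10. In MPY, WPGY and WPG together, 28 members stayed under 10 CPM.

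**Figure D1:**
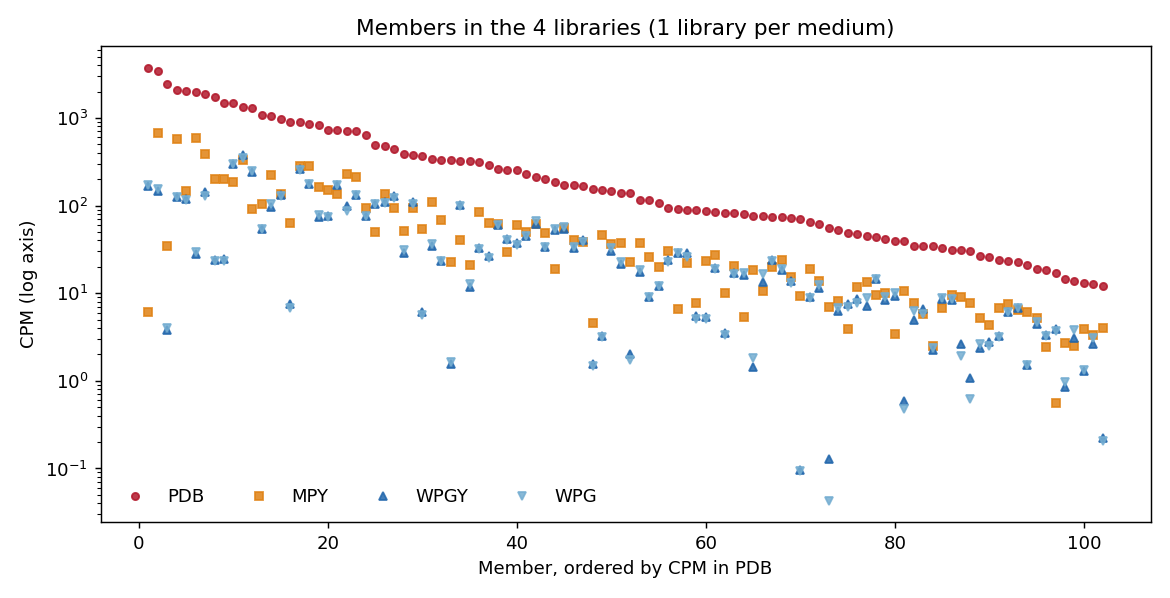
Each of the 102 members stands at 1 place on the horizontal axis, ordered by its CPM in PDB, with 1 point for each library on a log axis of CPM. The PDB points run from 3749.9 to 12.2 CPM and lie above the other media by construction, WPGY and WPG nearly coincide, and MPY lies above both for 74 members.

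Together the members took 4.51% of the counts in PDB (Wilson interval 4.507 to 4.514), 0.753% in MPY (interval 0.7504 to 0.7553), 0.470% in WPGY (interval 0.4690 to 0.4713) and 0.466% in WPG (interval 0.4649 to 0.4674). The 10 members of highest CPM held 49.1% of the members' counts in PDB. Divided by the span of each gene model, introns included, and rescaled to 1000000 per library (length-scaled counts), the share was 4.63% in PDB, 0.655% in MPY, 0.402% in WPGY and 0.399% in WPG. On the length-scaled level, 11 members were among the 100 highest genes of PDB, and none was among the 100 highest of MPY, WPGY or WPG.

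The files give the genes by protein ID and have no product names. A function could be read from the KOG (eukaryotic orthologous groups) and EggNOG annotation of the study, of which 827 gene models were at hand. Of these 827, 459 carried a description. The 827 included 10 members, and 6 of those carried a description. The other 92 members were not annotated here and are described by their values and positions, with the sequence number and bases of the Tubbor1 assembly.

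Gene 1103054 (sequence 242, 62777 to 63475) had 3749.9 CPM in PDB, 6.15 CPM in MPY, 168 CPM in WPGY and 170.5 CPM in WPG. It was therefore high in PDB, intermediate in both woody-plant-based media and low in MPY. PDB was 22.0 times WPG (interval 21.7 to 22.3) and 609.8 times MPY. On the length-scaled level it was the highest member, with 7859 in PDB, where it ranked 4 of all genes, against 12.8 in MPY, 326 in WPGY and 327 in WPG.

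Gene 1126885 (sequence 121, 179313 to 181392) had 2435 CPM in PDB, 34.3 CPM in MPY, 3.85 CPM in WPGY and 3.96 CPM in WPG. Its ratio of PDB to MPY, 71.1 (interval 67.7 to 74.6), was the largest of any member to its next medium. Against WPG the ratio was 615, and 461 counts stood behind the value in WPG.

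Gene 1035371 (sequence 400, 48093 to 48862) had 2001 CPM in PDB, 146 CPM in MPY, 119 CPM in WPGY and 116 CPM in WPG. The 3 other media lay close to each other, and PDB was 13.7 times MPY. Gene 90165 (sequence 127, 46402 to 47838) had 3388 CPM in PDB, 666 CPM in MPY, 148 CPM in WPGY and 153 CPM in WPG, a graded order in which MPY was 4.34 times WPG. On the length-scaled level these genes ranked 14 and 17 in PDB, at 3808 and 3454.

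Of the remaining members of highest CPM, genes 965137, 991192 and 1082283 had the same graded order. Gene 965137 had 1862 CPM in PDB, 388 CPM in MPY, 142 CPM in WPGY and 127 CPM in WPG. Gene 991192 had 1727 CPM in PDB, 203 CPM in MPY, 24.1 CPM in WPGY and 23.1 CPM in WPG. Gene 1082283 had 1482 CPM in PDB, 199 CPM in MPY, 24.7 CPM in WPGY and 23.0 CPM in WPG. Gene 608504 was the exception, with 1463 CPM in PDB, 187 CPM in MPY, 294 CPM in WPGY and 299.6 CPM in WPG, so that MPY was its lowest medium. With their spans of 4263 bp and 4604 bp, 965137 and 991192 were lower on the length-scaled level in PDB (640.0 and 549.7) than 608504 (1566).

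**Figure D2:**
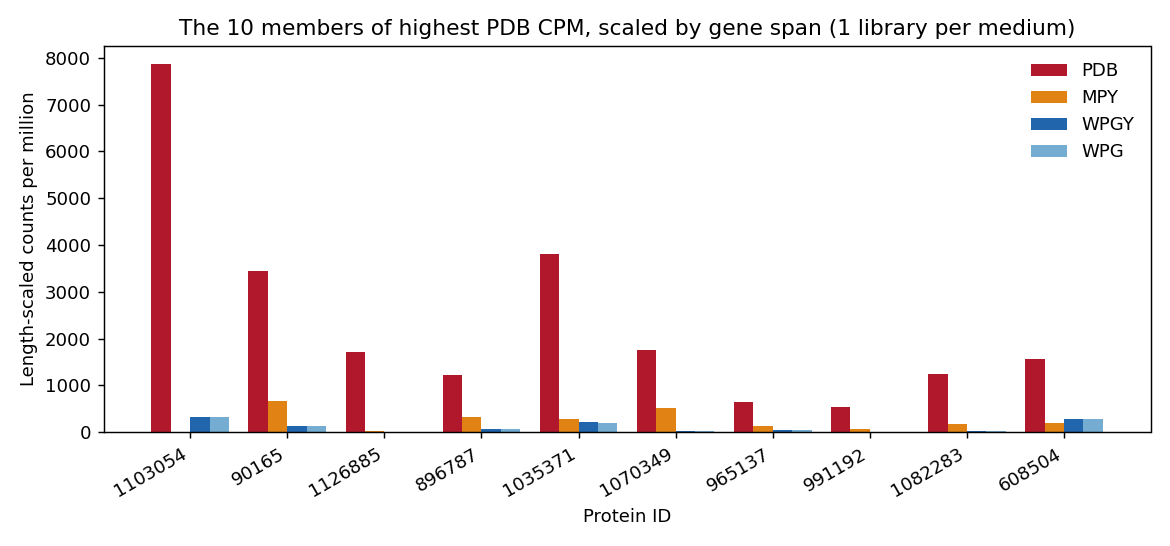
Bars give the length-scaled counts (per 1000000) of the 10 members of highest PDB CPM, with the libraries PDB, MPY, WPGY and WPG side by side on an axis that starts at 0. The tallest bar is gene 1103054 in PDB, at 7859, and gene 1126885 has 1715 in PDB against 24.1 in MPY, 2.51 in WPGY and 2.55 in WPG.

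Among the annotated members was a gene for a transcription factor of the bZIP family, proteins that bind DNA through a basic region and pair through a leucine zipper. This gene, 896787 (sequence 116, 77391 to 79915), had 2105 CPM in PDB, 572 CPM in MPY, 126 CPM in WPGY and 125 CPM in WPG. PDB was 3.68 times MPY (interval 3.64 to 3.73) and 16.8 times WPG. It was the only member among the 20 transcription factor genes of the annotation at hand, of which 18 had at least 10 CPM in PDB.

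Gene 1070349 (sequence 1, 597910 to 599530), annotated as parasitic phase-specific protein psp-1 (EggNOG), had 1953 CPM in PDB, 582 CPM in MPY, 28.3 CPM in WPGY and 29.2 CPM in WPG. PDB was 3.35 times MPY (interval 3.31 to 3.40) and 66.9 times WPG, and MPY was 20.0 times WPG. Its level thus fell into 3 steps, with both complex media above the woody-plant-based ones.

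The cytochrome P450 gene 1101102 belongs to a family of haem enzymes that insert oxygen into lipids, toxins and secondary metabolites. It had 81.5 CPM in PDB, 20.3 CPM in MPY, 16.8 CPM in WPGY and 16.5 CPM in WPG, and PDB was 4.01 times MPY (interval 3.76 to 4.29). Of the 36 cytochrome P450 and other oxidoreductase genes of the annotation at hand, 27 had at least 10 CPM in PDB. Gene 1101102 was the only member among them.

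Both annotated transporter members, 1101152 and 1083157, were assigned to the major facilitator superfamily, carriers that move small molecules across membranes. Gene 1101152 had 6472 counts (41.1 CPM) in PDB, 482 counts in MPY, 1057 counts in WPGY and 1063 counts in WPG, and PDB was 4.09 times MPY on the CPM scale. Gene 1083157 had 12.8 CPM in PDB, 3.36 CPM in MPY, 2.65 CPM in WPGY and 3.09 CPM in WPG, and PDB was 3.82 times MPY. Their spans on sequence 105 overlap by 96 bp, and the count of 1101152 was 3.21, 2.99, 3.18 and 2.95 times that of 1083157 in PDB, MPY, WPGY and WPG, and whether both counts come from 1 transcript was not tested. They were 2 of 19 transporter genes in the annotation at hand, of which 13 had at least 10 CPM in PDB. Over all gene models at that level, 1.51% were members.

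Gene 1072550, singled out after its values were seen, is annotated as an enoyl-CoA hydratase (KOG) and a methylglutaconyl-CoA hydratase (EggNOG), the latter an enzyme of leucine breakdown. It had 31.0 CPM in PDB, 9.01 CPM in MPY, 2.63 CPM in WPGY and 1.92 CPM in WPG, and PDB was 3.44 times MPY (interval 3.11 to 3.80). No member was found in the other lists, in which only genes of at least 10 CPM in PDB could be members. That level was reached by 32 of 55 kinase and signalling genes and 20 of 31 ribosome and translation genes. It was also reached by 4 of 7 carbohydrate-active enzymes, 6 of 7 secondary metabolism genes and 4 of 7 stress protein genes. Cell wall and surface genes reached it in 3 of 4 cases and peptidase genes in 3 of 3. The 1 nitrogen uptake gene was below it and could not be a member. Members were 1.51% of all gene models at that level. The lists were drawn by fixed words in the annotation, and no gene at hand matched the words for phenol oxidases or lipid metabolism. Gene 1072550 itself matched no list, so an empty list does not show that genes of that function were absent. These lists are short, so the counts say little about the functions of the members as a whole.

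The selection kept MPY, WPGY and WPG below PDB but did not fix their order. As MPY was harvested later than WPGY and WPG, medium and day cannot be told apart when MPY is set against them. MPY was the highest of the 3 for 74 members (72.5%), against 46.1% of the gene models with at least 10 CPM in PDB. MPY was above both WPGY and WPG for these 74, below both for 26 and between them for 2. MPY was at least 2 times WPG for 38 members (37.3%), against 9.93% of the gene models with at least 10 CPM in PDB. The opposite, WPG at least 2 times MPY, held for 9 members (8.82%), against a background of 11.0%. The median ratio of MPY to WPG was 1.43 over the members and 0.973 over the 6734 gene models. Under median-of-ratios scaling, which moved the median of those gene models up by 0.14 on the log2 scale, it was 1.58 over the members and 1.07 over all.

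By the ratio of MPY to WPG, the highest members were 636335, 1118019 and 1030611. Gene 636335 had 8658 counts in PDB, 330 counts in MPY, 16 counts in WPGY and 5 counts in WPG, which were 55.0, 6.88, 0.128 and 0.0430 CPM. It was the only member with fewer than 10 counts in WPG. Gene 1118019 had 70.8 CPM in PDB, 9.19 CPM in MPY, 0.0957 CPM in WPGY and 0.0945 CPM in WPG, and PDB was 749 times WPG. Gene 1030611 had 39.3 CPM in PDB, 10.7 CPM in MPY, 0.582 CPM in WPGY and 0.473 CPM in WPG.

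At the other end, the ratio of MPY to WPG was smallest in 1103054, 1061381 and 1038174. Gene 1061381 had 17.1 CPM in PDB, 0.563 CPM in MPY, 3.95 CPM in WPGY and 3.67 CPM in WPG, and was the only member under 1 CPM in MPY. Gene 1038174 had 92.2 CPM in PDB, 6.57 CPM in MPY, 28.7 CPM in WPGY and 28.9 CPM in WPG. In these genes MPY was between 0.0361 (1103054) and 0.227 (1038174) times WPG.

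WPGY and WPG gave nearly the same values. The ratio of WPGY to WPG had a median of 1.00 over the members and lay between 0.9 and 1.1 for 82 of them. It was lowest at 0.779 and highest at 2.97, the latter in gene 636335 with its 16 and 5 counts. These libraries were made from separate cultures that differ in yeast extract, so their ratio includes both that difference and the spread between cultures.

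**Figure D3:**
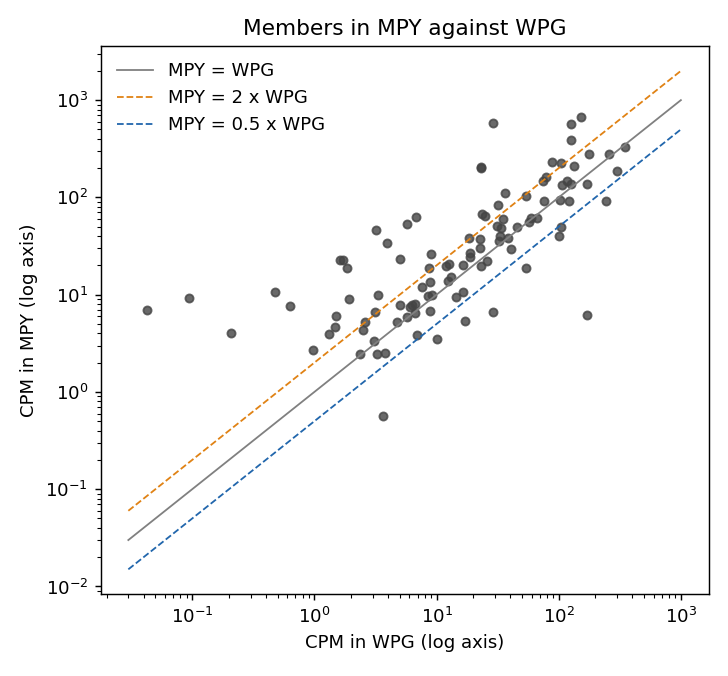
Each point is 1 of the 102 members, with CPM in WPG on the horizontal and CPM in MPY on the vertical log axis, and the lines mark equal values and 2-fold differences. Above the upper line lie 38 members and below the lower line 9, with gene 636335 farthest to the left at 0.0430 CPM in WPG.

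Positions were not used to choose the members. They lay on 71 of the 617 numbered sequences that carry a gene model. Their spans had a median of 1619 bp, from 321 to 5501 bp, against 1636 bp over the gene models with at least 10 CPM in PDB and 1241 bp over all. Many members were neighbours. Of the 196 places directly beside a member, 28 were held by another member (14.3%). Members made up 0.826% of all gene models and 1.51% of those with at least 10 CPM in PDB. The 28 places include those of pairs whose models overlap or lie within 100 bp, described below. There were 14 directly neighbouring pairs with 27 members in them, and 32 members lay within 3 gene models of another, in 10 runs of 2 and 4 runs of 3.

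In 4 of the neighbouring pairs the models overlapped or lay within 100 bp of each other, and whether 1 transcript was counted in both models was not tested. Genes 844035 and 1082283 on sequence 97 overlap by 416 bp, and the count of 844035 was 0.250 of that of 1082283 in PDB, 0.271 in MPY, 0.245 in WPGY and 0.248 in WPG. Genes 1076580 and 580869 on sequence 42 lie 11 bp apart, with count ratios of 11.9, 11.5, 12.0 and 11.2 in PDB, MPY, WPGY and WPG. Genes 89789 and 89788 on sequence 126 touch, with ratios of 0.505, 0.399, 0.447 and 0.578 in the same order. The transporter pair 1101152 and 1083157 is the other one. How reads in an overlap were assigned is not given in the sources used here. Without these 4 pairs, 10 neighbouring pairs were left.

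The highest ratio lay in such a pair. On sequence 121, gene 1126885 is preceded at a distance of 1837 bp by gene 1048633 (176288 to 177475), which had 39.5 CPM in PDB, 3.46 CPM in MPY, 9.21 CPM in WPGY and 10.1 CPM in WPG. The count of 1048633 was 0.0162 times that of 1126885 in PDB, 0.101 times in MPY and 2.56 times in WPG. These neighbours therefore both met the selection, but differed in which of the other media came next, MPY for 1126885 and WPG for 1048633.

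The run of 3 members on sequence 6 also mixed these orders. Gene 1118564 (43921 to 48662) had 153 CPM in PDB, 4.61 CPM in MPY, 1.55 CPM in WPGY and 1.48 CPM in WPG, and PDB was 33.1 times MPY (interval 29.0 to 38.0). It is followed by 1038174, described above for its small ratio of MPY to WPG, and by 1071366 (60097 to 62383). Gene 1071366 had 115 CPM in PDB, 26.2 CPM in MPY, 9.16 CPM in WPGY and 9.08 CPM in WPG. The next gene model, 962241, had 236 CPM in PDB, 175 CPM in MPY, 326 CPM in WPGY and 321 CPM in WPG and was not a member.

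On sequence 371 the members 1135054, 1094954 and 1004309 lie within 4 gene models, all of at least 722 CPM in PDB. Gene 1135054 (41467 to 42528) had 1308 CPM in PDB, 91.7 CPM in MPY, 243 CPM in WPGY and 245 CPM in WPG. Gene 1094954 (56970 to 59789) had 965 CPM in PDB, 136 CPM in MPY, 133 CPM in WPGY and 127 CPM in WPG. Gene 1004309 (62839 to 64054) had 722 CPM in PDB, 137 CPM in MPY, 172 CPM in WPGY and 171 CPM in WPG. The gene models between and beside them were lower in counts, and 538862 and 539041 reached 1.78 and 1.95 times the next medium, short of the limit.

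On sequence 33 the neighbours 1121158 and 492510 lie 235 bp apart. Gene 1121158 (22458 to 23765) had 331 CPM in PDB, 22.5 CPM in MPY, 1.55 CPM in WPGY and 1.62 CPM in WPG, and PDB was 14.7 times MPY (interval 13.8 to 15.6). Gene 492510 (24001 to 24864) had 14.6 CPM in PDB, 2.71 CPM in MPY, 0.845 CPM in WPGY and 0.971 CPM in WPG. The next model, 969369, was high in both complex media, with 389 CPM in PDB and 330.2 CPM in MPY, against 26.7 CPM in WPGY and 29.9 CPM in WPG, and so was not a member. The other member of this run, 1018294 (60762 to 61842), had 172 CPM in PDB, 56.1 CPM in MPY, 54.4 CPM in WPGY and 56.6 CPM in WPG, and its ratio of 3.03 was among the lowest of the members.

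The last run of 3, on sequence 92, held 1125216, 1100813 and 827715. Gene 1125216 had 83.2 CPM in PDB, 9.96 CPM in MPY, 3.49 CPM in WPGY and 3.32 CPM in WPG. Gene 1100813 had 203 CPM in PDB and 48.4 CPM in MPY, against 33.7 CPM in WPGY and in WPG. Gene 827715 had 34.5 CPM in PDB, 5.86 CPM in MPY, 6.56 CPM in WPGY and 5.73 CPM in WPG. The model between the first of these and the others, 1107682, had 167 CPM in PDB, 105 CPM in MPY, 131 CPM in WPGY and 125 CPM in WPG.

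Among the runs of 2, the pair on sequence 28 kept close count ratios in the complex media but not in the woody-plant-based ones. Gene 1074966 had 441 CPM in PDB, 92.9 CPM in MPY, 127 CPM in WPGY and 122 CPM in WPG, whereas 1112892 had 138 CPM in PDB, 22.5 CPM in MPY, 2.03 CPM in WPGY and 1.71 CPM in WPG. Their count ratio was 3.20 in PDB, 4.14 in MPY, 62.3 in WPGY and 71.1 in WPG. Beside 1070349 lies 1118019, the gene with 749 times as much in PDB as in WPG. The other runs of 2 were 949546 with 1070696 on sequence 3, 702632 with 974011 on sequence 59, and 1194668 with 1129643 on sequence 185. In these 6 members the ratio of PDB to the next medium lay between 3.19 (974011) and 7.70 (1194668).

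**Figure D4:**
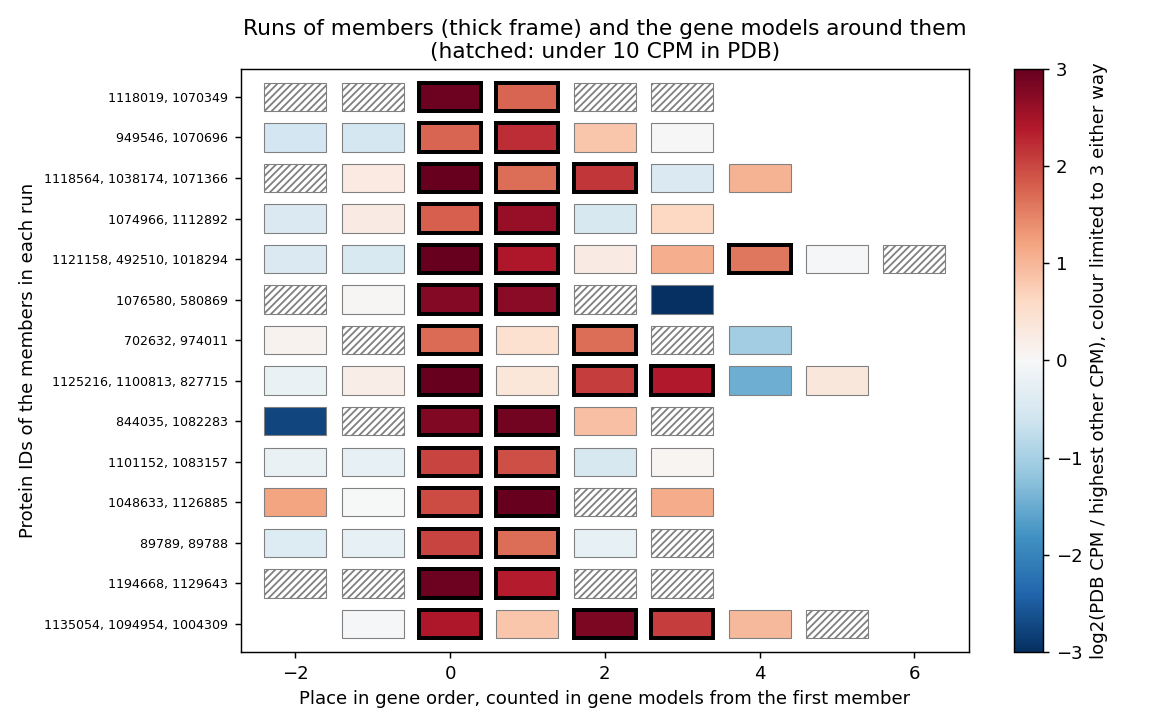
Each row is 1 of the 14 runs of members, with gene models as boxes in genome order (thick frames for members) and the colour giving log2 of PDB CPM over the highest other CPM. Boxes without a thick frame are mostly pale, and hatched ones had under 10 CPM in PDB.

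Beyond the members themselves, 165 other gene models lay directly beside one, of which 101 had at least 10 CPM in PDB. Their median ratio of PDB to the highest other medium was 0.981, against 0.867 over the 6632 gene models of at least 10 CPM in PDB that were not members. At least 2 times every other medium was reached by 7 of the 101 (6.93%), against a background of 2.14%. Around the 2 polyketide synthase models left out of the selection, which lie side by side on sequence 39, none of the 5 gene models on either side was a member. Only genes 1062354, 970641 and 1121691 of these reached the minimum of 10 CPM in PDB, with 38.4, 21.3 and 10.5 CPM. The others could not be members at any ratio. In those that could, PDB was 0.864, 1.12 and 0.933 times the highest other medium, which was MPY (44.4 CPM) for gene 1062354. As 1.51% of all gene models at that level were members, the absence of a member here says little about this neighbourhood.

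At the limit of 3 times, the members just inside were 1029616, 1018294 and 157994, with ratios of 3.024, 3.033 and 3.037. Just outside were 1090643, 969986 and 913142, with ratios of 2.989, 2.975 and 2.966. Gene 1090643 had 3455 CPM in PDB, 1156 CPM in MPY, 236 CPM in WPGY and 229 CPM in WPG, so a gene as high as the highest members was left out by a narrow margin. At the limit of 10 CPM, the members just inside had 12.2 CPM (258645), 12.8 CPM (1083157) and 13.0 CPM (1190998) in PDB, and the genes just outside had 9.14 CPM (1078317), 9.01 CPM (1118534) and 7.96 CPM (1193103). The span of 258645 overlaps that of a gene model beside it that is not a member, and whether their counts share reads was not tested.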

How the data were processed

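The authors checked the paired reads with FastQC, removed adapters (Trimmomatic), aligned the reads to the genome of strain Tbo3840 (STAR, assembly Tubbor1) and counted them per gene model (featureCounts). The deposited values are raw counts of 12346 gene models in 4 libraries, 1 for each medium, without normalization for depth or length. Strand and multi-mapping settings are not given in the sources used here, so models that overlap or have near-identical copies are uncertain. CPM used the total of each column. Length-scaled counts used the span of 12345 models in a table of the same assembly. Media were not tested against each other, as each has 1 library. Intervals of shares are Wilson intervals, and those of ratios come from the exact binomial interval of the 2 counts. Neighbours were taken from the order of gene models on each sequence. The members and lists were chosen with earlier results of these data known. Genes were named by a rule: the 10 members of highest PDB CPM, the 10 of largest ratio, the 3 of largest and the 3 of smallest MPY to WPG ratio, members within 3 gene models of another, annotated list members, the models beside the left-out synthases and the 3 on each side of both limits. The remaining genes of largest ratio were 1069189, 1100752, 1119238, 1000799 and 960644, with ratios of 10.2, 14.5, 15.4, 11.4 and 13.9. Promoter and protein sequences were not analysed here. A run on simulated counts, without spread between cultures, checked only that the limits were applied as stated. Calculations were made in Python 3.11.15 (pandas 2.3.3, numpy 2.4.6, scipy 1.17.1), and plots with matplotlib 3.10.9.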

Additional observations from a re-analysis of the deposited data

How the results depend on the processing

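The number of members, 102, depended mainly on the limits themselves. It was 242 with a limit of 2 times, 32 with 5 times, and 170 with no minimum in PDB beyond 3 counts. The polyketide synthase models named in the selection were left out in every setting. Against MPY alone, the medium of the same labelled harvest day and a choice made after seeing the data, 277 genes met the limit. With the synthase models included, 279 did. Scaling and depth moved the number of members little. Median-of-ratios scaling gave 105 genes, 97 of them members, and length-scaled counts gave 116, with 101 members. Thinning to the total of MPY gave 100, all members. Totals without the 10 most abundant genes of each library gave 95, 1 CPM added to every value 94, a minimum of 20 CPM 94 and a minimum of 1 CPM 128. Of the members described by name, genes 258645, 1029616 and 1018294 came under 3 times in 3 of these settings: at 2.977, 2.963 and 2.995 under median-of-ratios scaling, at 2.988, 2.973 and 2.867 without the most abundant genes, and at 2.632, 2.944 and 2.997 with 1 CPM added. Gene 157994 did in the last 2 of them, at 2.876 and 2.905, and gene 1190998 with 1 CPM added, at 2.849. The share of the PDB counts was 4.63% with length-scaled counts and 2.29% without the 10 members of highest CPM. The median ratio of PDB to the next medium was 4.17 under median-of-ratios scaling and 4.05 with 1 CPM added, and that of MPY to WPG was 1.58 under median-of-ratios scaling. Neighbouring pairs numbered 21 up to 3 gene models apart and 10 without overlapping or touching pairs, the latter chosen after seeing the data. No paired analysis was possible because each medium has 1 library.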
